A study of Mus musculus with 24 samples.

Results

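Nphs1, Plce1, Podxl, Ptpro, Synpo and Wt1 are 6 genes used to mark the podocyte, the epithelial cell that covers the glomerular capillary in the kidney. They were found by symbol among the 23955 gene symbols of the deposited count table, and all 6 were among the 15080 genes with enough counts to be tested. RNA came from whole mouse kidney, so these genes report on a small population of cells within a tissue made mostly of tubule. Fewer podocytes and less RNA per podocyte cannot be told apart in such samples.

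The study had 24 libraries in 6 groups of 4. Kidneys labelled PLD4-/- (KO) and PLD4+/+ (WT) were taken as controls at day 0, at day 5 of UUO (unilateral ureteral obstruction, tying off 1 ureter so that urine backs up into that kidney) and at day 10 of UUO. The labels used here do not give the strain, sex, age, allele, surgery batch or which kidney was sampled, and do not say that replicates are separate animals, so the p-values measure the spread between these libraries. Pld4 encodes phospholipase D4, and its transcript ranged from 6.70 to 12.6 CPM (counts scaled to library size) in KO against 5.10 to 8.25 CPM in WT at day 0, from 13.4 to 32.6 CPM in KO against 46.6 to 50.9 CPM in WT at day 5, and from 24.3 to 50.3 CPM in KO against 54.6 to 117 CPM in WT at day 10. The deleted stretch is not given, so KO and WT are used here as the labels give them.

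Podocytes extend foot processes that interlock around the capillary. Between the foot processes runs the slit diaphragm, a protein mesh that holds albumin back from the urine, and behind it an actin skeleton keeps the processes in shape. Nephrin (Nphs1) is the core protein of the slit diaphragm, and phospholipase C epsilon 1 (Plce1) is a signalling enzyme whose loss causes nephrotic syndrome in humans. Podocalyxin (Podxl) is a negatively charged protein of the apical surface that keeps neighbouring foot processes apart, and Ptpro, also called GLEPP1, is a receptor tyrosine phosphatase of the same surface. Synaptopodin (Synpo) binds actin and alpha-actinin in the foot process, and Wt1 is the zinc finger transcription factor that the podocyte needs to form and to persist.

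Wt1 protein binds GC-rich DNA, so 1 promoter of the set is shown. The 250 bases before the RefSeq start of Ptpro (build GRCm38.p6, chr6:137252049-137252298, plus strand) are printed 5′ to 3′, with the letters GTGGGAG, the core of a known WT1 site, in capitals:
Ptpro: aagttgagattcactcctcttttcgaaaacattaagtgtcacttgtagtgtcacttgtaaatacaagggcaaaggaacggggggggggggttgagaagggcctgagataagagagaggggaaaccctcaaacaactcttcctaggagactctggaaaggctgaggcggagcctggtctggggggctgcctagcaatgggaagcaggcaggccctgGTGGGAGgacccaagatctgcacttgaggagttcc
The 1 match begins 35 bases before the start. The letters were chosen after this sequence had been read. On either strand (GTGGGAG or CTCCCAC), 2710 of 32851 RefSeq promoter windows of the same length hold a match, which is 8.25%. The match is thus a description of these letters and does not show that Wt1 binds there. A RefSeq promoter window was at hand for 3 of the 6 genes, Nphs1, Plce1 and Ptpro. Those of Nphs1 and Plce1 overlap an annotated untranslated region and are not shown.

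KO day 0 replicate 4 stood apart from the other day 0 libraries in all 6 genes, and the results for the 6 genes that rest on the KO day 0 group are given with and without it. The library was singled out by the values of these same 6 genes. Leaving out the highest day 0 value raises each KO change from day 0. KO calls gained without it are therefore no independent support for a rise. Relative to the mean of KO day 0 replicates 1 to 3, its CPM was 3.26 times as high for Nphs1, 3.14 for Ptpro, 2.63 for Wt1, 2.30 for Podxl, 1.88 for Synpo and 1.70 for Plce1. It exceeded all 7 other day 0 libraries for all 6 genes, which was also so for 21.8% of the 15080 genes tested, and the median ratio over all genes was 1.00. A ratio at least as high as that of Plce1 was found for 5.87% of genes. The summed CPM of the 6 genes was 746 in this library against 245 to 343 in the other 7. WT day 10 replicates 2 and 3 stood apart over all genes, at -85.0 and -69.3 on the second principal component where the other 22 libraries lay between -19.9 and 26.6. With both left out, the same 4 of the 6 genes were called in WT at day 10.

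Other podocyte genes were mostly higher in the same library, and some were lower. That library exceeded all 7 other day 0 libraries for 10 of 15 slit diaphragm genes and 10 of 17 cytoskeleton genes. The same held for 6 of 10 podocyte transcription factors, 8 of 13 other podocyte-enriched genes and 21.8% of all genes tested. Cdkn1c, a cell cycle inhibitor of mature podocytes, had a ratio of 3.32 to the mean of replicates 1 to 3, the semaphorin Sema3g 2.25 and dendrin (Ddn) 1.97. The growth factor gene Vegfa had a ratio of 0.721, the LIM protein gene Pdlim2 0.719 and the transcription factor gene Foxc1 0.685. The median ratio was 1.25 for 15 slit diaphragm genes, 1.21 for 17 cytoskeleton genes, 1.34 for 10 podocyte transcription factors and 1.42 for 13 other podocyte-enriched genes, and 3, 4, 2 and 2 genes of these lists lay below 1. It was 0.945 for 13 genes of the glomerular basement membrane, 1.12 for 12 of glomerular endothelium, 1.05 for 10 of mesangium and 1.11 for 8 of the parietal epithelium of Bowman capsule. Outside the glomerulus, the median ratio was 1.45 for 10 proximal tubule genes, higher than in each of those podocyte lists. Of these 10 genes 3 lay below 1, and the 10 summed to 22729 CPM, inside the 15084 to 24122 CPM of the other 7 libraries. Tubular injury genes summed to 4236 CPM in this library against 1448 to 2219 CPM in the other 7. Most of the 4236 CPM was Spp1 (3219 CPM) and Clu (881 CPM). The median ratio of the 9 injury genes was 1.13, and 3 of them lay below 1. All 4 tested mesothelial genes had a ratio below 1 (median 0.175). The part of these lists in the values of the 6 genes was not tested.

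**Figure D1:**
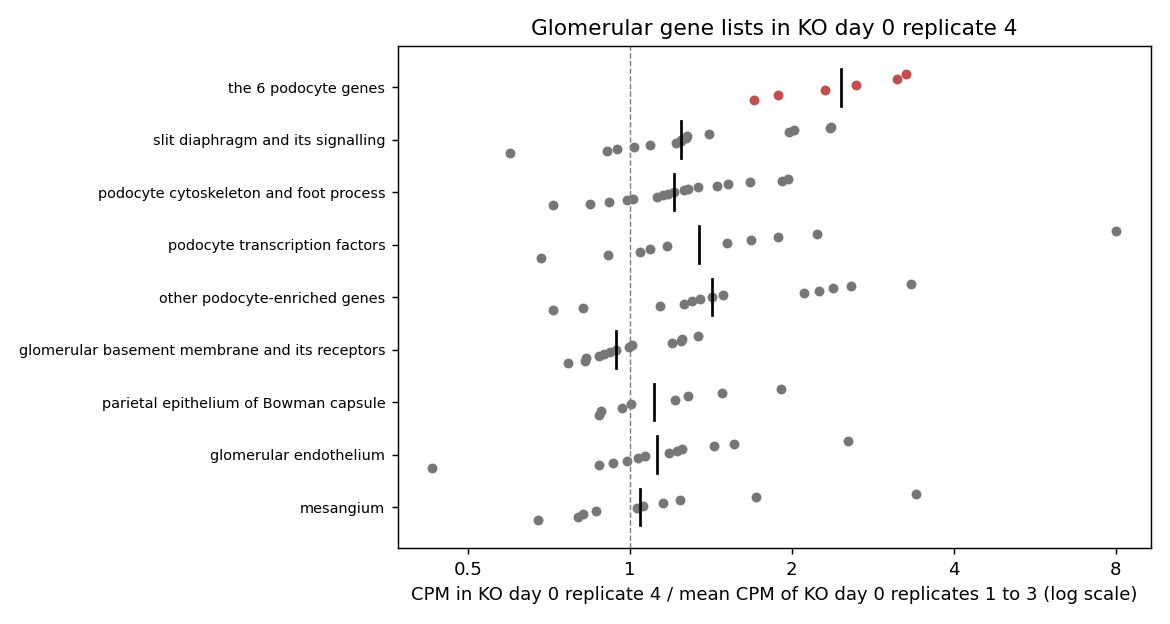
Ratio of CPM in KO day 0 replicate 4 to the mean CPM of KO day 0 replicates 1 to 3 (log axis) for each tested gene of 9 glomerular lists, 1 point a gene, with a black bar at the list median. The 6 podocyte genes (red) lie between 1.70 and 3.26, to the right of the dashed line at 1.

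Nphs1 at day 0 had 19.2, 22.6, 24.8 and 72.3 CPM in KO libraries and 20.8, 20.7, 12.1 and 22.0 CPM in WT libraries. At day 5 of UUO it had 24.6, 16.7, 19.0 and 31.7 CPM in KO and 27.9, 35.2, 31.0 and 24.5 CPM in WT. At day 10 it had 25.7, 32.3, 23.9 and 24.3 CPM in KO and 29.1, 21.0, 36.2 and 32.9 CPM in WT. Every WT day 5 library was above every WT day 0 library, and 3 of the 4 WT day 10 libraries were. Differences are log2 fold changes ± SE from edgeR's quasi-likelihood test, with p-values adjusted by Benjamini-Hochberg over all 15080 genes and called under 0.05. Nphs1 was 0.65 ± 0.32 higher at day 5 than at day 0 in WT (adjusted p = 0.0901) and 0.65 ± 0.32 higher at day 10 (adjusted p = 0.0762), and neither was called. In KO its values were -0.60 ± 0.32 at day 5 (adjusted p = 0.141) and -0.39 ± 0.32 at day 10 (adjusted p = 0.307). With KO day 0 replicate 4 left out, they were 0.05 ± 0.23 and 0.26 ± 0.23 in KO, also not called, while both WT differences, of nearly the same size, were called (adjusted p = 0.0139 at day 5 and 0.00993 at day 10). Nphs1 in obstructed KO kidney thus had no direction that held without that library.

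Plce1 at day 0 had 7.99, 10.3, 9.22 and 15.6 CPM in KO and 7.87, 9.10, 6.64 and 8.16 CPM in WT. At day 5 it had 13.8, 12.6, 14.6 and 18.2 CPM in KO and 12.2, 11.7, 12.4 and 13.4 CPM in WT. At day 10 it had 15.2, 21.0, 19.2 and 13.3 CPM in KO and 19.5, 12.6, 15.1 and 15.2 CPM in WT. All 8 obstructed WT libraries lay above the day 0 WT libraries, and all 8 obstructed KO libraries lay above KO day 0 replicates 1 to 3. Plce1 rose in WT by 0.65 ± 0.19 at day 5 (adjusted p = 0.0076) and by 0.98 ± 0.19 at day 10 (adjusted p = 0.000158). In KO it rose at day 10, by 0.67 ± 0.19 (adjusted p = 0.00563), and its day 5 value was 0.46 ± 0.19 (adjusted p = 0.0607). Both KO differences were called without KO day 0 replicate 4, at 0.70 ± 0.18 (adjusted p = 0.00544) and 0.91 ± 0.18 (adjusted p = 0.000418).

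Podxl at day 0 had 183, 202, 211 and 458 CPM in KO and 165, 187, 165 and 199 CPM in WT. At day 5 it had 178, 174, 222 and 254 CPM in KO and 164, 181, 147 and 235 CPM in WT. At day 10 it had 227, 224, 183 and 178 CPM in KO and 191, 264, 235 and 232 CPM in WT. The obstructed and day 0 libraries overlapped in both genotypes, and no difference from day 0 was called. The values were 0.02 ± 0.23 at day 5 (adjusted p = 0.933) and 0.36 ± 0.23 at day 10 (adjusted p = 0.161) in WT, and -0.35 ± 0.23 (adjusted p = 0.227) and -0.38 ± 0.23 (adjusted p = 0.164) in KO. The KO values without KO day 0 replicate 4 were 0.06 ± 0.17 and 0.03 ± 0.17, and the WT value at day 10 was called (0.36 ± 0.15, adjusted p = 0.0442). Podxl is also made by endothelium, whose 12 listed genes had a median change at day 10 of -0.29 in KO and 0.71 in WT. The KO median was -0.31 without KO day 0 replicate 4. The part of these endothelial genes in the Podxl values was not tested.

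Ptpro at day 0 had 14.0, 13.1, 12.9 and 41.9 CPM in KO and 12.4, 12.5, 8.52 and 16.7 CPM in WT. At day 5 it had 22.1, 22.0, 19.8 and 31.7 CPM in KO and 20.6, 28.4, 21.3 and 24.5 CPM in WT. At day 10 it had 24.4, 28.9, 26.03 and 25.3 CPM in KO and 24.6, 20.7, 44.8 and 31.0 CPM in WT. All 16 obstructed libraries were above the 7 day 0 libraries other than KO replicate 4. Ptpro rose in WT by 0.92 ± 0.32 at day 5 (adjusted p = 0.0179) and by 1.27 ± 0.32 at day 10 (adjusted p = 0.00142). Leaving out WT day 0 replicate 3, the lowest library, ended the call at day 5 (0.78, adjusted p = 0.0619). In KO the values were 0.22 ± 0.31 (adjusted p = 0.603) and 0.35 ± 0.31 (adjusted p = 0.353), and without KO day 0 replicate 4 they were 0.84 ± 0.23 (adjusted p = 0.00873) and 0.97 ± 0.23 (adjusted p = 0.00207).

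Synpo at day 0 had 64.2, 80.8, 77.4 and 139.6 CPM in KO and 72.4, 71.8, 46.4 and 54.5 CPM in WT. At day 5 it had 97.6, 94.4, 109 and 107 CPM in KO and 89.4, 97.5, 87.6 and 108 CPM in WT. At day 10 it had 125, 123, 119 and 116 CPM in KO and 117, 136, 127 and 125 CPM in WT. KO day 0 replicate 4 apart, the days did not overlap in either genotype, with every day 10 library above every day 5 library of its genotype. Synpo rose in WT by 0.64 ± 0.17 at day 5 (adjusted p = 0.00413) and by 1.04 ± 0.18 at day 10 (adjusted p = 2.86e-05). In KO its day 5 value was 0.17 ± 0.17 (adjusted p = 0.46), and it rose by 0.42 ± 0.17 at day 10 (adjusted p = 0.0484). That last call was lost under 18 of 36 alternatives, with adjusted p up to 0.183. With KO day 0 replicate 4 left out, Synpo was called in KO at both days, at 0.46 ± 0.13 (adjusted p = 0.0116) and 0.70 ± 0.13 (adjusted p = 0.000295).

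Wt1 at day 0 had 7.30, 6.92, 7.998 and 19.5 CPM in KO and 6.92, 6.63, 6.28 and 6.79 CPM in WT. At day 5 it had 10.4, 7.23, 8.38 and 11.5 CPM in KO and 12.7, 16.7, 13.5 and 11.2 CPM in WT. At day 10 it had 14.4, 17.2, 12.4 and 10.9 CPM in KO and 13.4, 16.6, 17.3 and 16.6 CPM in WT. In WT all 8 obstructed libraries were above the 4 of day 0, whereas KO day 5 still overlapped KO day 0 replicates 1 to 3. Wt1 rose in WT by 1.02 ± 0.26 at day 5 (adjusted p = 0.00237) and by 1.26 ± 0.26 at day 10 (adjusted p = 0.000225). In KO the values were -0.16 ± 0.25 (adjusted p = 0.655) and 0.39 ± 0.25 (adjusted p = 0.198), and without KO day 0 replicate 4 they were 0.34 ± 0.18 (adjusted p = 0.145) and 0.89 ± 0.18 (adjusted p = 0.000583). Wt1 is also a gene of mesothelium, whose 4 tested genes were mixed at day 10. Msln, the surface protein mesothelin, rose by 3.48 ± 0.67 in KO (adjusted p = 0.00023) and by 1.99 ± 0.62 in WT (adjusted p = 0.00721). Gpm6a, which holds most of the summed reads of that list, fell (-1.71 ± 0.44 in KO, adjusted p = 0.00293, and -2.69 ± 0.46 in WT, adjusted p = 3.2e-05), and Upk1b and Upk3b were not called. Their part in the Wt1 values was not tested.

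**Figure D2:**
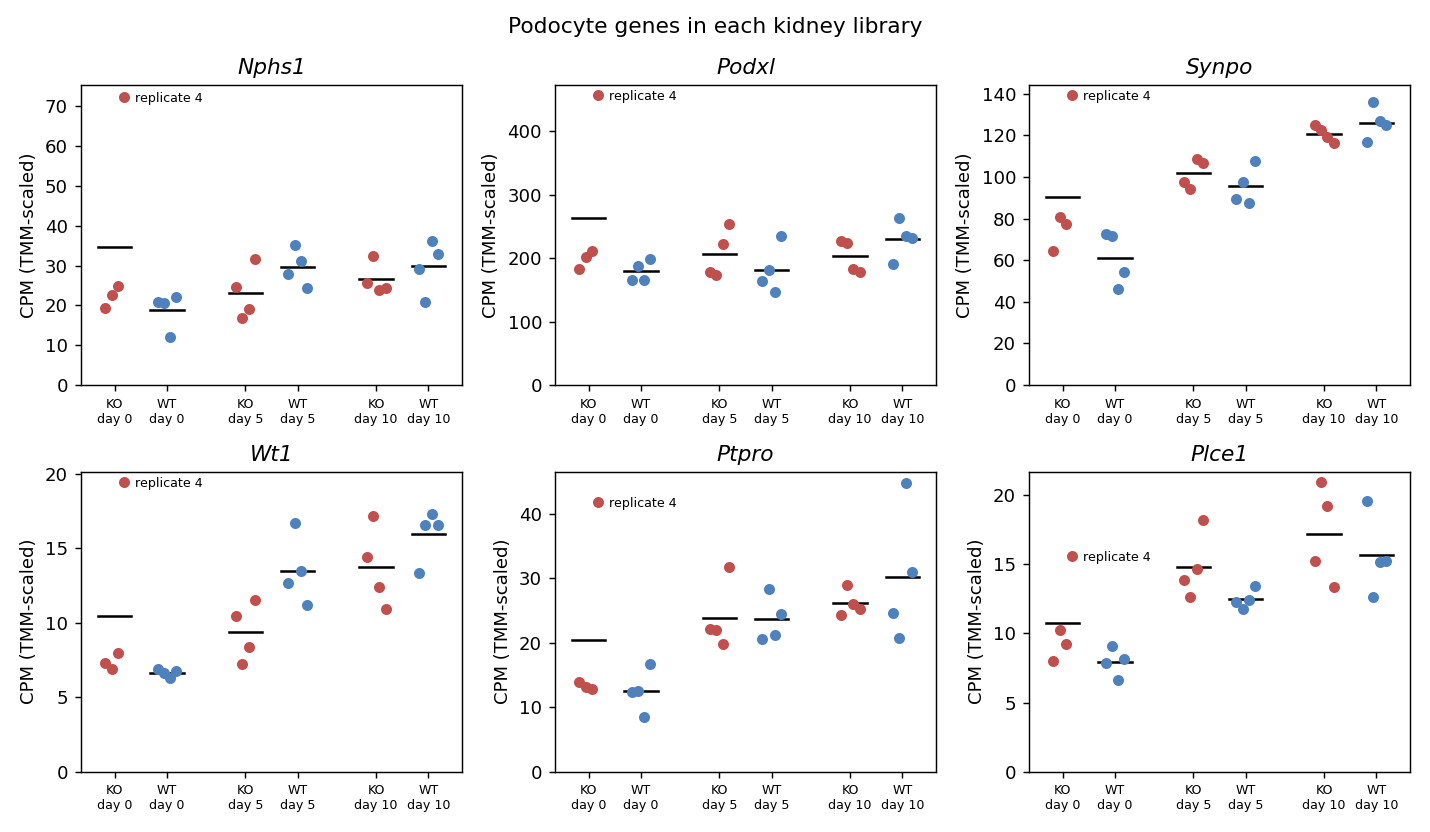
CPM (linear axis from 0) of each podocyte gene in each of the 24 libraries, KO (red) beside WT (blue) at days 0, 5 and 10, 1 point a library with a bar at the mean of 4. KO day 0 replicate 4 is marked and is the highest day 0 library in all 6 panels, and the Synpo points climb with each day.

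Counted together, 4 of the 6 genes rose in WT at day 5 (Plce1, Ptpro, Synpo and Wt1) and the same 4 at day 10. Over all genes tested, 31% rose at day 5 and 37.8% at day 10 in WT. None of the 6 fell in WT, where 25.6% of all genes fell at day 5 and 30.3% at day 10, or in KO, where 17% and 26% did. In CPM 5 of the 6 were clear of day 0 at day 5, where 28.2% of all genes were higher without overlap, and 4 of the 6 at day 10, where 32.4% were. In KO none was called at day 5 by edgeR, where 22.4% of all genes rose (1 of the 6 had an unadjusted p under 0.05, as did 48.7% of all genes), and 2 rose at day 10 (Plce1 and Synpo), where 28.3% did. None of the 6 was clear of day 0 in KO at day 5, where 22% of all genes were higher without overlap, or at day 10, where 29.9% were. Non-overlap without KO day 0 replicate 4 was not counted over all genes. The statements above on Plce1, Ptpro and Synpo without that library are therefore description only. The median difference of the 6 genes was 0.65 at day 5 and 1.01 at day 10 in WT, beside medians over all genes of 0.08 and 0.12, and 0.01 and 0.37 in KO, beside 0.01 and 0.04.

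The KO count without KO day 0 replicate 4 was 3 of 6 at day 5 (Plce1, Ptpro and Synpo), where 21.3% of all genes rose, and 4 of 6 at day 10, where 26.9% did. The 4 genes called at day 10 were those called in WT with all libraries. In WT the same omission gave 5 of 6 at day 5, where 30.8% of all genes rose, and 6 of 6 at day 10, where 37.7% did. At day 10 in WT, the SE went from 0.32 to 0.21 for Nphs1 and from 0.23 to 0.15 for Podxl. With all libraries, DESeq2 gave the counts of edgeR in all 4 comparisons with day 0, 0 of 6 in KO at day 5 included. On a log2(FPKM + 1) scale (FPKM, the authors' own values, scaled to transcript length and library depth), limma called 3 of the 6 in KO at day 5 and 4 at day 10, and all 6 in WT on both days. Of the 13588 genes tested on that scale, 8217 rose in KO at day 5 and 8416 at day 10. In WT 8464 rose at day 5 and 8327 at day 10. That scale moved the median of all genes between obstruction and day 0 up by 0.47 to 0.54, against 0.01 to 0.12 with TMM-scaled counts.

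**Figure D3:**
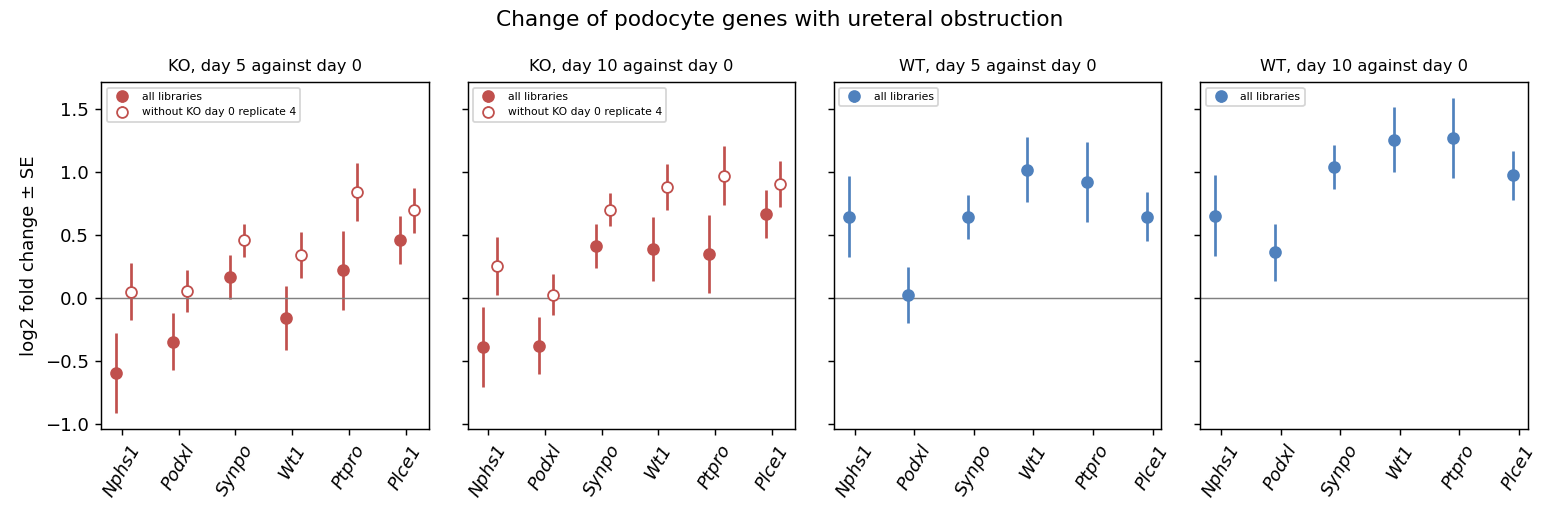
Log2 fold change ± SE between UUO and day 0 for each podocyte gene, KO (red, left) and WT (blue, right) at days 5 and 10. Filled points use all libraries, and open points leave out KO day 0 replicate 4, which moves the 6 KO values up at both days.

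Between days 5 and 10 of UUO none of the 6 genes was called in either genotype. In KO, where 0.0199% of all genes were called, 1 of the 6 had an unadjusted p under 0.05, Wt1 (0.55 ± 0.25, adjusted p = 0.456 by edgeR), as did 10.7% of all genes. In WT, where 10.8% of all genes were called, 1 of the 6 did, Synpo (0.40 ± 0.17, adjusted p = 0.134), as did 28.5% of all genes. DESeq2 called none of the 6 in either. Synpo was the 1 gene whose day 10 libraries did not overlap those of day 5, in KO (0.25 ± 0.17) as in WT, where 4.36% of all genes in KO and 3.47% in WT were higher without overlap. Synpo was called in WT without KO day 0 replicate 4 (adjusted p = 0.0422), where 7.62% of all genes rose.

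KO and WT kidneys were also compared within each day. At day 0 all 6 genes had positive differences, with KO above WT by 0.88 ± 0.32 for Nphs1, 0.71 ± 0.32 for Ptpro, 0.65 ± 0.26 for Wt1, 0.56 ± 0.23 for Podxl, 0.56 ± 0.18 for Synpo and 0.44 ± 0.20 for Plce1. None was called by edgeR (adjusted p 0.0756 to 0.268), where 4.18% of all genes were called in either direction. All 6 had an unadjusted p under 0.05, as did 15.6% of all genes. DESeq2 called 1, Synpo (adjusted p = 0.0492), where it called 975 of the 15080 genes in either direction. Wt1 alone did not overlap between the genotypes, as 10.5% of all genes did not in the same direction. Its groups nearly touched, at 6.923 CPM in the lowest KO library and 6.918 CPM in the highest WT library. The 6 differences were 0.09 to 0.27 without KO day 0 replicate 4, with adjusted p of 0.432 to 0.954. Macrophage genes moved with genotype in the same libraries, with summed levels of 346 to 484 CPM in KO against 159 to 242 CPM in WT, and their part in the podocyte values was not tested.

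At day 5 none of the 6 genes was called between KO and WT, where 0.146% of all genes were, and none had an unadjusted p under 0.05 by edgeR. Wt1 came nearest, at -0.52 ± 0.25 (adjusted p = 0.358), with 11.5 CPM in the highest KO library just above 11.2 CPM in the lowest WT library. At day 10 none was called either, where 1.41% of all genes were, and the 6 differences ran from -0.22 to 0.14, each smaller than its SE. DESeq2 called none at either day. Synpo at day 10 was the closest pair, at 121 ± 3.76 CPM in KO and 126 ± 7.70 CPM in WT (SD, n = 4 each), a difference of -0.06 ± 0.17.

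The response to obstruction was then compared between genotypes, as the KO change minus the WT change. All 6 values were negative at both days, although those of Podxl and Plce1 at day 5 turned positive under 2 of 36 alternatives each. At day 5 they reached -1.24 ± 0.45 for Nphs1 (adjusted p = 0.247) and -1.18 ± 0.36 for Wt1 (adjusted p = 0.161), and none was called, where 0.564% of all genes were. At day 10 they ran from -1.05 ± 0.45 for Nphs1 (adjusted p = 0.259) to -0.30 ± 0.27 for Plce1 (adjusted p = 0.628), and none was called, where 3.25% were. By edgeR 2 of the 6 genes had an unadjusted p under 0.05 at day 5, as did 13.7% of all genes, and 5 at day 10, as did 15.3%. DESeq2 called none at either day. Left without KO day 0 replicate 4, the values were -0.68 to 0.05 at day 5 and -0.40 to -0.07 at day 10. Without WT day 5 replicate 4 the day 5 value of Wt1 was called (-1.29, adjusted p = 0.0469). Both responses use the day 0 groups, so they share the day 0 difference given above.

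The balance among the 6 genes needs no scaling between libraries, since it is the share of their own summed reads that falls on each. Podxl took 47.1% to 56.5% of these reads in the 16 obstructed libraries against 57.8% to 67.3% in the 8 day 0 libraries, with no overlap. By group its mean share was 61.2% ± 0.707 in KO and 62.7% ± 4.22 in WT at day 0, 54.3% ± 2.42 in KO and 50.7% ± 4.08 in WT at day 5, and 49.7% ± 2.23 in KO and 51.3% ± 3.37 in WT at day 10 (SD, n = 4 each). Synpo took 23.5% to 31.7% in obstructed libraries against 17.7% to 25.4% at day 0, and the ranges overlapped. KO day 0 replicate 4 held 61.3% Podxl, inside the range of the other day 0 libraries, and 9.69% Nphs1, above their 4.95% to 7.31%. A share moves when any 1 of the 6 genes moves, and these values were not tested.

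**Figure D4:**
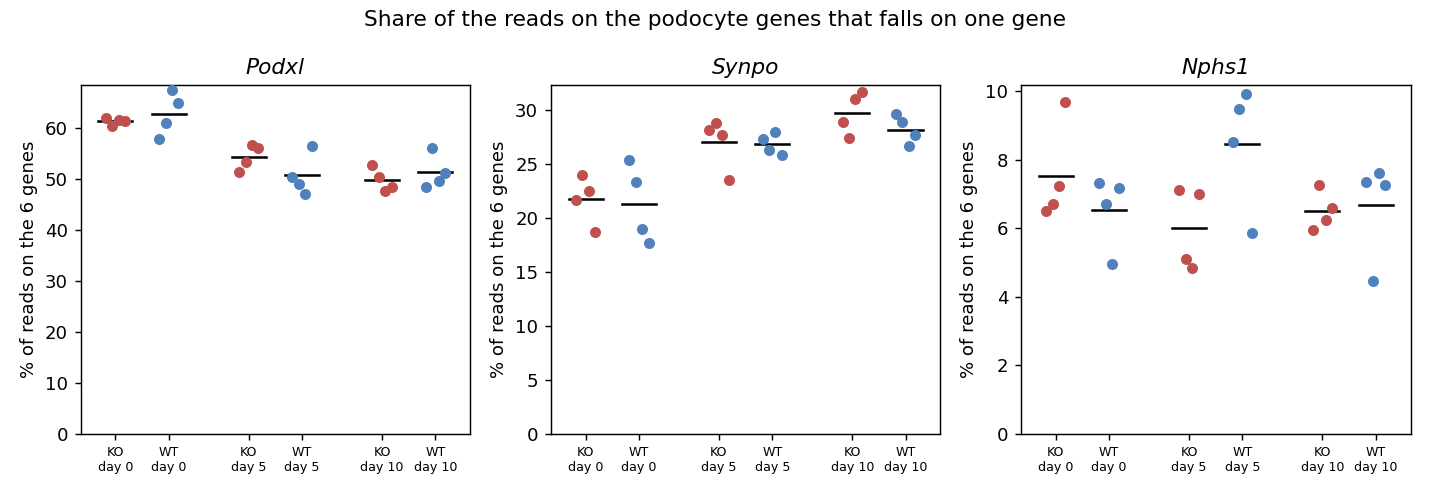
Percent of the reads on the 6 podocyte genes that fell on Podxl, Synpo and Nphs1 in each library (linear axes from 0), KO (red) beside WT (blue) at each day, with a bar at the mean of 4. All obstructed libraries lie below all day 0 libraries for Podxl.

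Levels of different genes can be compared in FPKM, which accounts for transcript length. Podxl was highest and Plce1 lowest in every group. At day 10 Podxl had 33.0 ± 5.50 FPKM in KO and 33.7 ± 4.26 FPKM in WT, Synpo 21.0 ± 1.68 FPKM in KO and 19.7 ± 1.65 FPKM in WT, and Plce1 1.55 ± 0.400 FPKM in KO and 1.27 ± 0.308 FPKM in WT (SD, n = 4 each). Ptpro, Nphs1 and Wt1 lay between, at 3.86 to 4.49 FPKM in KO and 3.98 to 4.79 FPKM in WT, and neighbours among these 3 overlapped in every group. At day 0 Podxl was at 28.1 ± 15.5 FPKM in KO and 16.8 ± 2.32 FPKM in WT, and the Synpo and Nphs1 ranges of KO overlapped through replicate 4.

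Deviations from the group mean, in log2 CPM over 24 libraries, were positively related for every pair of the 6 genes. Pearson's r was 0.901 for Nphs1 with Ptpro, 0.868 for Nphs1 with Wt1 and at least 0.589 for every pair. Without KO day 0 replicate 4 the r values ran from 0.178 (Synpo with Wt1) to 0.773 (Nphs1 with Ptpro). Within a library all 6 genes share the same RNA, depth and scaling, so the values describe the libraries. Among 13036 other genes, those most like the mean of the 6 were Abcc4 (r = 0.839), Slc3a2 (0.819), Klhl25 (0.807), Padi2, Ogdhl, Gc, Ephb1, Kdm6a, Zfp385b and Fam65a (0.772). Without KO day 0 replicate 4 their r was 0.132 (Gc) to 0.640 (Ephb1), and none was among the 10 highest, which Nipbl led (0.779).

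Other genes of the filtration barrier were read from lists, with day 10 against day 0 given for KO and then WT. Over all genes tested, 28.3% rose and 26% fell in KO, and 37.8% rose and 30.3% fell in WT. Of 15 tested slit diaphragm genes, 10 rose and 1 fell in KO, and 10 rose and 1 fell in WT. The KO count was 10 risen and 0 fallen when KO day 0 replicate 4 was left out. The median was 0.71 in KO and 0.86 in WT, where that of all genes was 0.04 and 0.12. Kirrel, which encodes the nephrin partner Neph1, rose by 1.82 ± 0.19 in KO (adjusted p = 2.43e-07) and by 2.53 ± 0.20 in WT (adjusted p = 1.99e-09). Cd2ap, an adaptor that ties nephrin to actin, rose by 0.75 ± 0.13 in KO (adjusted p = 0.00011) and by 0.61 ± 0.13 in WT (adjusted p = 0.00043). Many of these genes, Tjp1, Fyn and Cd2ap among them, are made by other kidney cells too.

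Of 17 tested cytoskeleton and foot process genes, 6 rose and 6 fell in KO at day 10, and 6 rose and 5 fell in WT, close to the shares over all genes. The KO count without KO day 0 replicate 4 was 6 risen and 4 fallen. Inf2, a formin mutated in human podocyte disease, rose by 1.83 ± 0.25 in KO (adjusted p = 6.5e-06) and 2.82 ± 0.26 in WT (adjusted p = 1.73e-08). Nes, the intermediate filament protein nestin, rose by 1.11 ± 0.19 in KO (adjusted p = 5.73e-05) and 1.71 ± 0.19 in WT (adjusted p = 1.75e-07).

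Of 10 podocyte transcription factors, 4 rose in KO and 5 in WT, not far above the shares over all genes, and none fell. Tcf21, which stromal cells make as well, rose by 2.09 ± 0.33 in KO (adjusted p = 3.71e-05) and 2.30 ± 0.34 in WT (adjusted p = 6.44e-06). Macrophage genes summed to 1252 to 1813 CPM in KO and 1398 to 8603 CPM in WT at day 10, and all 9 rose in both genotypes, with 8 of 9 in KO when KO day 0 replicate 4 was left out. Lmx1b, the podocyte factor behind nail-patella syndrome, had at most 16 counts in any library, and its values were 0.05 ± 0.67 in KO (adjusted p = 0.96) and -0.23 ± 0.67 in WT (adjusted p = 0.777). Its KO value without KO day 0 replicate 4 was 1.39 ± 0.72 (adjusted p = 0.113).

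Of 13 other podocyte-enriched genes, 6 rose and 3 fell in KO at day 10, and 8 rose and 1 fell in WT. The count in KO without KO day 0 replicate 4 was 7 risen and 3 fallen, and the median went to 0.64, against -0.02 with it. Vegfa, the growth factor that podocytes and tubule cells supply to the capillaries, fell in KO (-1.26 ± 0.27, adjusted p = 0.000563) and had -0.42 ± 0.26 in WT (adjusted p = 0.158). Bmp7, a growth factor of podocytes and tubules, fell in KO (-1.23 ± 0.25, adjusted p = 0.000405) and in WT (-1.65 ± 0.25, adjusted p = 1.02e-05). Sulf1, a heparan sulfatase also made by fibroblasts, rose by 2.66 ± 0.52 in KO (adjusted p = 0.00027) and by 4.82 ± 0.57 in WT (adjusted p = 4.55e-07).

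Of 13 genes of the glomerular basement membrane and its receptors, 9 rose and 2 fell in KO at day 10, and 9 rose and 3 fell in WT. Col4a3, a chain of the mature membrane collagen that podocytes lay down, was among those that fell, by -1.45 ± 0.34 in KO (adjusted p = 0.0014) and -1.92 ± 0.35 in WT (adjusted p = 6.12e-05). Nid1, a linker found in most basement membranes, rose by 1.80 ± 0.23 in KO (adjusted p = 3.42e-06) and 2.30 ± 0.24 in WT (adjusted p = 7.59e-08).

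Of the 8 parietal epithelial genes 6 rose in KO and 6 in WT, and none fell. Cd44, which activated parietal cells share with leukocytes and injured tubule, rose by 4.12 ± 0.39 in KO (adjusted p = 8.09e-08) and 6.88 ± 0.44 in WT (adjusted p = 2.7e-10). Of 12 glomerular endothelial genes, 1 rose and 5 fell in KO, and 6 rose and 1 fell in WT. The KO count without KO day 0 replicate 4 was 1 risen and 2 fallen. Of 10 mesangial genes, 5 rose and none fell in KO, and 4 rose and 1 fell in WT, where 37.8% of all genes rose. All 10 proximal tubule genes fell and all 9 tubular injury genes rose in both genotypes, and their part in the podocyte values was not tested. The KO calls named here for Kirrel, Cd2ap, Inf2, Nes, Tcf21, Vegfa, Bmp7, Sulf1, Col4a3, Nid1, Cd44, Msln and Gpm6a were also made without KO day 0 replicate 4, with values from -1.85 (Gpm6a) to 4.19 (Cd44).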

How the data were processed

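Per the labels' protocols, TRIzol RNA from kidney went into TruSeq stranded mRNA libraries (1 ug each). Per the submitters' processing notes, bcl2fastq 2.16, STAR 2.5, Cufflinks and mm9 were used. The tool, annotation and strand setting behind the counts are not given in the sources used here. Wt1 and its antisense neighbour Wt1os (3 to 26 counts per library) are counted separately, but whether they share reads is not known. The authors deposited raw counts per gene (23955 symbols) and FPKM per gene (23953). Totals ran from 9800888 to 22542866 counts, and the lowest count of any of the 6 genes was 58 (Wt1).

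Counts were tested with edgeR 4.0.16 in R 4.3.3 (filterByExpr, minimum count 10 and total 15, TMM scaling, 6 group means, 18 residual degrees of freedom, robust quasi-likelihood), and CPM uses the TMM-scaled totals. The SE is the log2 fold change divided by the square root of F. Scripts were tested on simulated data. DESeq2 1.42.0 and limma 3.58.1 on log2 FPKM (pseudocount 1 or 0.1, FPKM of at least 1 in 4 or more libraries) were alternatives, as were other scalings, filters and libraries left out. FPKM differences are on the log2(value + pseudocount) scale and understate low genes. No 2 libraries of a group differed by as little as sampling noise (chi-square per degree of freedom at least 6.06 over 36 pairs).

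Replicate numbers recur in every group. Libraries of equal number deviated together, with r above 0.1 for each of 4 numbers, in KO against WT at day 10 (0.141 to 0.306) and WT day 10 against day 5 (0.105 to 0.361). The labels do not say what a number shares.

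The genes, lists, tests and naming rule were chosen with earlier results of these data known. Named by rule were the 6 genes, up to 4 genes of each list with the lowest adjusted p at day 10, Lmx1b, Cd2ap, Vegfa and Col4a3, and the 10 genes with the highest likeness (mean log2 CPM of at least 1, prior count 2). Some genes that the rule names are not reported here. Cdkn1c, Sema3g, Ddn and Foxc1 were named after their values were seen. Kirrel2 had too few counts to be tested. In the FPKM file 1 row that holds no values was left out.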

Additional observations from a re-analysis of the deposited data

Results flagged for a closer look

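In groups of 4, a library is set apart here when its gap to the nearest other library takes up more of the group's range than Dixon's critical value allows, which chance does in about 1 in 20 groups. Among 36 groups, 6 for each gene, 5 had such a library. In KO day 0 replicate 4 these were Nphs1 at 72.3 CPM (nearest 24.8), Podxl at 458 CPM (nearest 211), Wt1 at 19.5 CPM (nearest 7.998) and Ptpro at 41.9 CPM (nearest 14.0). The 4 values come from 1 library and are not separate events. The other was Nphs1 in WT day 0 replicate 3, the lowest of its group at 12.1 CPM (nearest 20.7).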

How the results depend on the processing

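The calls for Plce1, Synpo and Wt1 in WT at day 5, and for those genes and Ptpro at day 10, held in all 36 alternatives, and so did Plce1 in KO at day 10. The count in KO at day 10, 2 of 6, was 1 with RLE factors, with no low-count filter and with only the groups compared, and 4 with each of the 3 FPKM fits, with library totals only, and with KO day 0 replicate 4 and WT day 10 replicates 2 and 3 left out together. Leaving out 1 library at a time gave 1 to 4. In KO at day 5, 0 of 6, it was 3 with the FPKM fits, 2 with library totals, 1 without WT day 10 replicates 2 and 3, 3 without these and KO day 0 replicate 4, and 0 to 3 without 1 library. Over all genes in KO, log2(FPKM + 1) and log2(FPKM + 0.1) called 8217 and 8339 of 13588 higher at day 5. At day 10 they called 8416 and 8463. Without the filter the FPKM fit called 8843 of 19617 at day 5 and 9642 at day 10. With RLE factors 4194 of 15080 genes rose at day 10, with no low-count filter 4355 of 19555, and with only the groups compared 4605 of 14433. For KO against WT at day 0, 0 of 6, the count was 1 (Synpo) with DESeq2, log2(FPKM + 0.1), library totals and without WT day 10 replicates 2 and 3, and 0 to 1 without 1 library. Over all genes, DESeq2 called 975 of 15080 there and log2(FPKM + 0.1) called 841 of 13588, in either direction. WT day 10 against day 5 and the genotype difference in the day 5 response had 0 to 1 without 1 library. Against day 0, Nphs1 and Podxl in KO changed sign at both days and Wt1 in KO at day 5, never called in these comparisons. Podxl in WT at day 5 was negative in 5 alternatives, not called, and positive in 31, with 3 called. The replicate block left the counts against day 0 as they were, 0 and 2 of 6 in KO and 4 and 4 in WT, and changed no other call. The library totals, the joint omission of 3 libraries and the list counts without KO day 0 replicate 4 were added after seeing the data. Where calls changed, the cause was not tested. Wt1 and Plce1 had the fewest counts of the 6 genes, at 58 to 412 a library.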
